A study of Mus musculus with 12 samples.

Results

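The genes described here encode the respiratory chain and the ATP synthase of the mitochondrion. They were chosen by name: nuclear genes of the Nduf, Sdh, Uqcr, Cox and Atp5 families with Cyc1, and mitochondrially encoded genes of the mt-Nd, mt-Co, mt-Cytb and mt-Atp families. Of 98 genes with such names, 6 were dropped as named pseudogenes and 6 because they lay below 1 CPM, that is 1 read per 1000000 of the library, in more than 9 of the 12 libraries. The remaining 86 genes, out of 26121 in the table and 14180 tested, were 79 nuclear and 7 mitochondrial genes. Grouped by name, 35 nuclear and 5 mitochondrial genes were counted under complex I, 4 nuclear genes under complex II, 9 nuclear and 1 mitochondrial under complex III, 14 nuclear and 1 mitochondrial under complex IV, and 17 nuclear genes under ATP synthase. The names place Ndufa4 under complex I and Atp5s and Atp5sl under ATP synthase, although they are not known as subunits of these. All 86 passed the filter on low values, and 85 of them reached 1 CPM in each of the 12 libraries. The exception was Atp5g2.

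Electrons from NADH enter the chain at complex I and electrons from succinate at complex II; both are passed by ubiquinone to complex III, by cytochrome c to complex IV and from there to oxygen. The proton gradient that complexes I, III and IV build drives ATP synthase, also called complex V. Complexes I, III, IV and V combine subunits from both genomes, while complex II is made only from nuclear genes. In dendritic cells, activation is known to shift metabolism away from respiration and toward glycolysis.

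RNA was sequenced from renal dendritic cells of 6 male wild-type mice, 8 to 12 weeks old. The 4 groups of 3 libraries were CD11b+ cells and CD103+ cells from inflamed kidneys, taken 7 days after nephrotoxic antiserum, and CD11b+ cells and CD103+ cells from kidneys of healthy mice. The antiserum binds the glomerulus and brings on an immune kidney disease, nephrotoxic nephritis. CD103 marks the cross-presenting cDC1 lineage, whereas CD11b is carried by cDC2, monocytes and macrophages, so the CD11b+ sort need not be a single lineage. The comparisons ask how each subset responded to nephritis and how the subsets differed in each state.

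The libraries held 11486182 to 26556814 reads assigned to genes. The summed level of 7 cDC1 markers was 0.309 to 0.389% of CPM in inflamed CD103+ libraries and 0.0784 to 0.178% in healthy CD103+ libraries, against at most 0.0235% in any CD11b+ library. That of 7 cDC2 markers was 0.363 to 0.390% in inflamed and 0.274 to 0.294% in healthy CD11b+ libraries, against at most 0.0056% in any CD103+ library. A list of 15 proximal tubule genes, all of them found and none at 0 reads in any group, made up 0.410 to 0.580% of CPM in inflamed CD11b+, 0.361 to 0.470% in inflamed CD103+, 0.826 to 2.06% in healthy CD11b+ and 3.49 to 5.44% in healthy CD103+ libraries. Pan-leukocyte genes, 31 of a list of 32, ran the other way, at 2.19 to 2.28%, 2.01 to 2.21%, 1.35 to 1.54% and 0.410 to 0.880% of CPM in the same groups. Tubule RNA thus moved with the groups in which respiratory chain RNA was high. Its part in the results below was tested only through a covariate, given beside each comparison.

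The 7 mitochondrial genes together took 1.47%, 1.10% and 1.61% of reads in inflamed CD11b+ libraries and 1.18%, 1.27% and 1.45% in inflamed CD103+ libraries, against 2.29%, 2.46% and 3.03% in healthy CD11b+ and 8.32%, 9.02% and 7.37% in healthy CD103+ libraries. No inflamed library overlapped the healthy libraries, and the healthy CD103+ libraries stood above all others. The 79 nuclear genes summed to 8059, 7994 and 8925 CPM in inflamed CD11b+, 9418, 9184 and 9664 CPM in inflamed CD103+, 8980, 9478 and 11043 CPM in healthy CD11b+ and 17932, 23585 and 15647 CPM in healthy CD103+ libraries. Here the healthy CD103+ libraries stood well above all others, the inflamed CD11b+ libraries lay just below the healthy CD11b+ ones, and inflamed CD103+ and healthy CD11b+ libraries overlapped. The ratio of mitochondrial to nuclear sums was 1.39 to 1.93 in inflamed CD11b+, 1.36 to 1.60 in inflamed CD103+, 2.48 to 2.68 in healthy CD11b+ and 3.62 to 4.50 in healthy CD103+ libraries. In bulk samples, fewer cells of a type and less RNA per cell cannot be told apart.

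**Figure D1:**
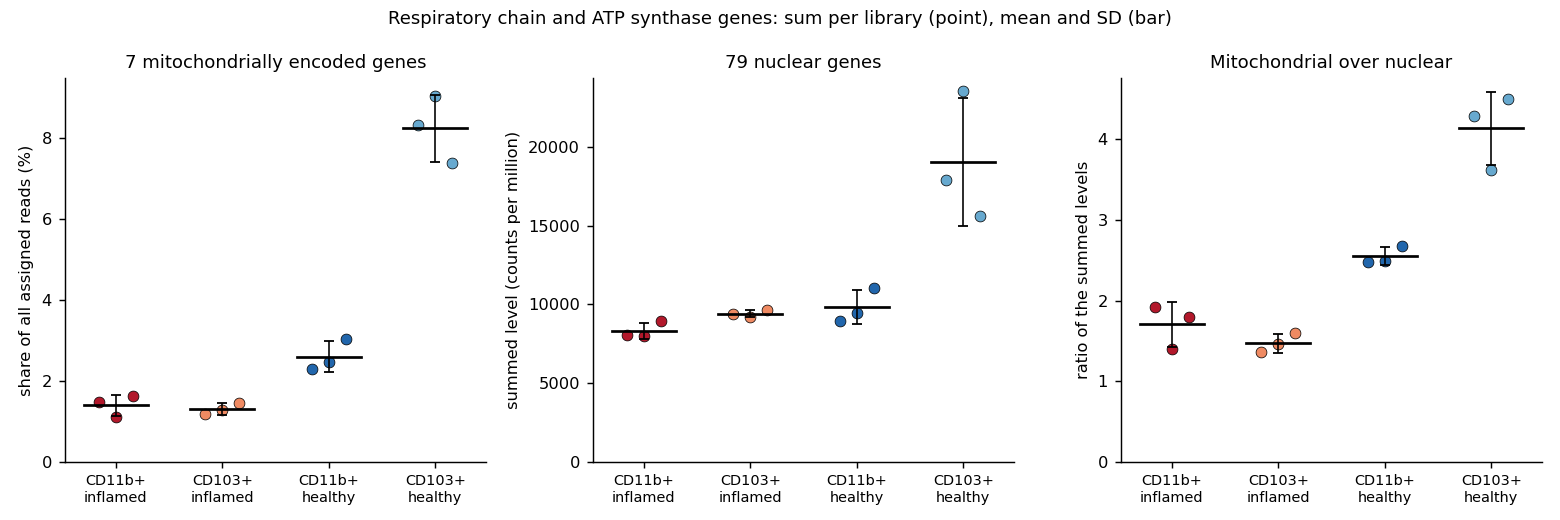
Summed level of the mitochondrial genes (left, % of reads), of the nuclear genes (middle, CPM) and their ratio (right) in each library (points), with the mean and SD of 3 libraries (bars), for inflamed and healthy CD11b+ and CD103+ cells. The mitochondrial share lies at 1.10 to 1.61% in every inflamed library and at 7.37 to 9.02% in healthy CD103+ libraries.

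Respiratory chain RNA fell across both genomes and all complexes in CD103+ cells in nephritis. Of the 86 genes, 81 were lower and 0 higher in inflamed than in healthy CD103+ cells (limma, adjusted p under 0.05), beside 27.8% lower and 34.6% higher (62.4% in either direction) among all genes tested. Without adjustment, at p under 0.05, 83 were lower and 0 higher. The 7 mitochondrial genes all fell, with a median log2 difference of -2.67, and 74 of the 79 nuclear genes fell, with a median of -1.03, against a median of 0.16 over all genes. By complex, nuclear genes that fell numbered 34 of 35 in complex I (median -1.02), 4 of 4 in complex II (-0.79), 9 of 9 in complex III (-1.15), 13 of 14 in complex IV (-1.15) and 14 of 17 in complex V (-1.0). The 5 genes that did not pass were Ndufa6, Cox7a2l, Atp5c1, Atp5f1 and Atp5g2. With the proximal tubule score as a covariate no gene of 14180 passed in this comparison, and at an unadjusted p under 0.05 the members were 5 lower and 0 higher, so that nephritis and tubule content cannot be told apart for it.

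In CD11b+ cells the fall was smaller and uneven between complexes. In inflamed against healthy CD11b+ cells 39 genes were lower and 1 was higher, beside 15.8% lower and 20.1% higher (35.9% in either direction) among all genes tested. Of the mitochondrial genes 6 of 7 fell (median log2 difference -1.03), and of the nuclear genes 33 of 79 fell (median -0.40, against 0.08 over all genes). Nuclear genes that fell numbered 12 of 35 in complex I (median -0.28), 0 of 4 in complex II (median 0.33), 6 of 9 in complex III (-0.54), 7 of 14 in complex IV (-0.53) and 8 of 17 in complex V (-0.42). Macrophage markers, 10 of 10 found, took 0.198 to 0.229% of CPM in inflamed and 0.0866 to 0.104% in healthy CD11b+ libraries, and B cell markers, 6 of 6, took 0.00465 to 0.00655% in inflamed and 0.0143 to 0.0239% in healthy CD11b+ libraries. Their part in the result was not tested. Each of the 39 had also fallen in CD103+ cells, which makes 48.1% of the 81 and 100% of the 39. As 81 of the 86 genes (94.2%) fell in CD103+ cells, nearly any 39 of them would overlap in this way. The overlap therefore does not show agreement between the subsets.

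The CD11b+ count changed when single libraries were left out and when a trend on GC content and transcript length was removed. It was 25 lower without inflamed CD11b+ library 1, and 23 lower without inflamed CD11b+ library 2 or without healthy CD11b+ library 3. Removing each library's trend on GC content and transcript length left 14 lower, all of them among the 39, and put 14 higher. Those 14 lower genes were mt-Nd2, mt-Nd4, mt-Nd5, mt-Nd6, mt-Cytb, Ndufa10, Ndufb2, Cyc1, Uqcrfs1, Cox5a, Atp5b, Atp5d, Atp5g1 and Atp5l. With the tubule covariate, Cox5a (-4.25), Cyc1 (-1.68) and Uqcrfs1 (-1.22) stayed lower and Sdhd (1.27) and Atp5a1 (1.10) were higher. The shares of all genes called under these settings are not given here, so the counts are not compared with other genes.

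**Figure D2:**
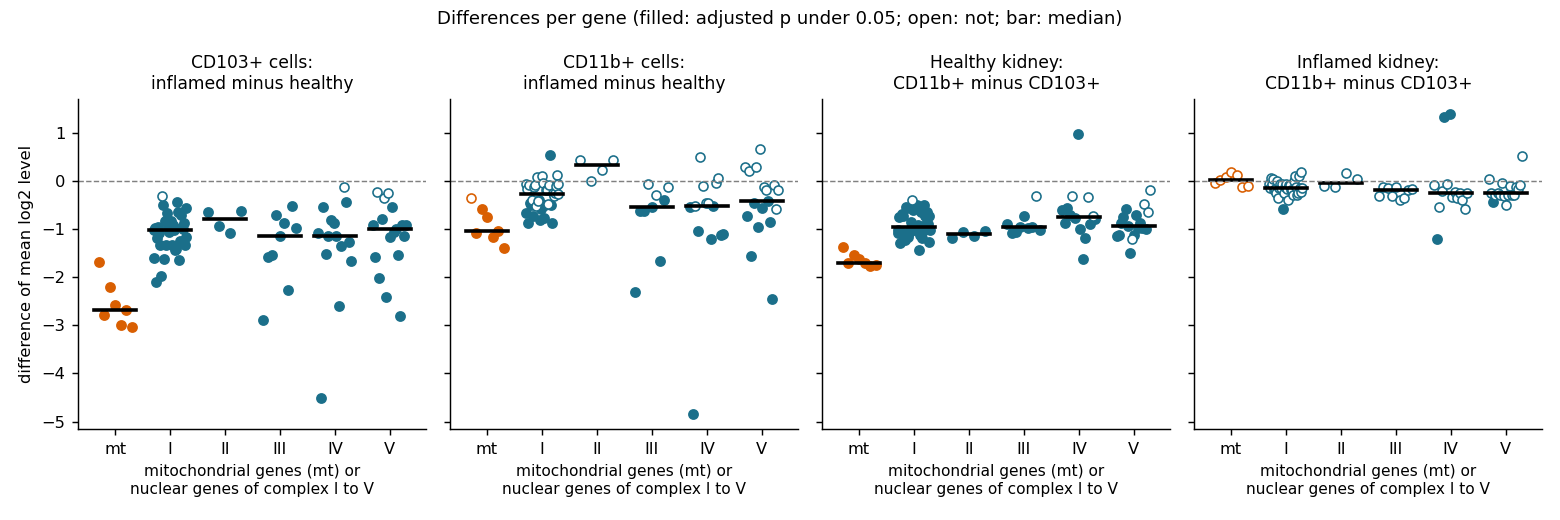
Difference of mean log2 levels for each gene, for mitochondrial genes (mt, orange) and nuclear genes by complex (blue), in 4 comparisons; filled points have adjusted p under 0.05 and bars are medians. Mitochondrial genes lie lowest in CD103+ cells in nephritis (median -2.67), complex II lies above 0 in CD11b+ cells in nephritis (median 0.33), and Cox5a is the point below -4 in both.

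The mitochondrial genes encode core subunits and are transcribed as long precursors, nearly all from the heavy strand, with mt-Nd6 on the opposite one. The cytochrome b gene mt-Cytb (chrM:14145-15288, GRCm38), the mitochondrial subunit of complex III, was the highest of them per length in healthy CD103+ cells. It stood at 4544, 3187 and 4818 CPM in inflamed CD11b+, 3737, 3941 and 4656 CPM in inflamed CD103+, 7731, 7940 and 10660 CPM in healthy CD11b+ and 28503, 30870 and 26160 CPM in healthy CD103+ libraries. The inflamed libraries of the subsets overlapped, while each subset's inflamed libraries lay below its healthy ones. Its log2 difference was -2.80 ± 0.19 (SE) in CD103+ cells in nephritis (adjusted p = 1.1e-07) and -1.08 ± 0.19 in CD11b+ cells in nephritis (adjusted p = 0.000719).

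The complex I gene mt-Nd6 fell most among the 7 in both subsets. Its level was 456, 293 and 387 CPM in inflamed CD11b+ and 365, 397 and 451 CPM in inflamed CD103+ libraries, against 1005, 838 and 1103 CPM in healthy CD11b+ and 3354, 3546 and 3032 CPM in healthy CD103+ libraries, with no overlap within either subset. The differences were -3.04 ± 0.17 in CD103+ cells (adjusted p = 5.12e-08) and -1.39 ± 0.17 in CD11b+ cells (adjusted p = 6.01e-05). The other complex I genes mt-Nd1, mt-Nd2, mt-Nd4 and mt-Nd5 fell by 2.22, 2.57, 3.00 and 2.67 in CD103+ cells. In CD11b+ cells they fell by 0.58, 0.75, 1.18 and 1.03 on the same log2 scale. The mt-Nd1 call in CD11b+ cells (adjusted p = 0.0289) was lost without inflamed library 1 or 2 or healthy library 2 or 3 of that subset.

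The catalytic core of cytochrome oxidase, mt-Co1, moved least among them. In inflamed CD11b+ libraries it had 2932, 2053 and 2823 CPM and in inflamed CD103+ libraries 2712, 2410 and 2837 CPM, against 2772, 3522 and 3635 CPM in healthy CD11b+ and 8597, 8955 and 7923 CPM in healthy CD103+ libraries. The CD11b+ groups overlapped, and the difference of -0.35 ± 0.17 did not pass (adjusted p = 0.11), whereas the CD103+ difference of -1.68 ± 0.17 did (adjusted p = 1.7e-06). Of the 50-base windows of mt-Co1, 51.1% are also found in transcripts of other annotated genes, and of mt-Nd4 62.2%, so their counts are uncertain. For mt-Nd1, mt-Cytb and mt-Nd6 the share is 0%. The genes mt-Co3 and mt-Nd3, at 99.9% and 98%, were among those dropped for low values. No gene named mt-Co2, mt-Atp6, mt-Atp8 or mt-Nd4l was among the 98 genes found by name.

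Complex I takes electrons from NADH through a core of 7 nuclear flavin and iron-sulphur subunits. All 7 fell in CD103+ cells in nephritis, with a median of -1.0. In CD11b+ cells 1 of the 7, Ndufs1, rose and 2 fell, and the median of the core was -0.11. Ndufs1 is the largest subunit of the core. It had 111, 107 and 115 CPM in inflamed and 83.5, 64.9 and 82.5 CPM in healthy CD11b+ libraries, against 112, 115 and 106 CPM in inflamed and 197, 220 and 124 CPM in healthy CD103+ libraries. Neither subset's states overlapped, and the directions were opposite. Its differences were 0.54 ± 0.18 in CD11b+ cells (adjusted p = 0.0333) and -0.66 ± 0.18 in CD103+ cells (adjusted p = 0.00626). The CD11b+ rise was lost without any of the 3 inflamed CD11b+ libraries or healthy CD11b+ library 2 (adjusted p = 0.0712 to 0.123), and under leukocyte scaling the difference was -0.03.

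Of the 27 accessory subunits of complex I, which surround the core, 26 fell in CD103+ and 10 in CD11b+ cells. Ndufa12, which sits at the junction of the arms, fell most in both. Its level was 14.0, 14.9 and 16.5 CPM in inflamed CD11b+ and 14.5, 16.9 and 16.5 CPM in inflamed CD103+ libraries, against 23.8, 28.3 and 32.4 CPM in healthy CD11b+ and 59.8, 105 and 52.1 CPM in healthy CD103+ libraries. The states did not overlap in either subset. The falls were 4.32-fold in CD103+ cells (log2 -2.11 ± 0.22, adjusted p = 3e-06) and 1.85-fold in CD11b+ cells (log2 -0.89 ± 0.22, adjusted p = 0.00727). Ndufa4, named as a complex I gene but now known as a complex IV subunit, fell in CD103+ cells (-1.33 ± 0.19, adjusted p = 4.2e-05) and differed by -0.40 ± 0.19 in CD11b+ cells (adjusted p = 0.119). Its relative Ndufa4l2 was among the genes dropped for low values, as was Ndufs5.

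Complex II is succinate dehydrogenase, which is also an enzyme of the citric acid cycle. Sdha carries the flavin that oxidises succinate, Sdhb carries the iron-sulphur clusters, and Sdhc and Sdhd anchor the enzyme in the membrane. In CD103+ cells in nephritis all 4 fell, whereas in CD11b+ cells none passed, and Sdha and Sdhd were higher at an unadjusted p under 0.05. Sdha had 435, 473 and 434 CPM in inflamed CD11b+, 534, 464 and 449 CPM in inflamed CD103+, 271, 335 and 407 CPM in healthy CD11b+ and 784, 933 and 595 CPM in healthy CD103+ libraries. In CD11b+ cells each inflamed library lay above each healthy one, and in CD103+ cells below. The differences were 0.42 ± 0.18 in CD11b+ cells (adjusted p = 0.0767) and -0.66 ± 0.18 in CD103+ cells (adjusted p = 0.0054). 

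Sdhd followed the same pattern. Its values were 156, 171 and 184 CPM in inflamed CD11b+ and 170, 167 and 162 CPM in inflamed CD103+ libraries, against 107, 120 and 154 CPM in healthy CD11b+ and 243, 357 and 198 CPM in healthy CD103+ libraries. It differed by 0.44 ± 0.19 in CD11b+ cells (adjusted p = 0.0903) and by -0.63 ± 0.19 in CD103+ cells (adjusted p = 0.0106). Sdhb and Sdhc differed by -0.01 and 0.23 in CD11b+ cells and fell by 0.93 and 1.08 in CD103+ cells. The difference between the subsets' responses passed for each of the 4, at 1.08 for Sdha, 0.92 for Sdhb, 1.31 for Sdhc and 1.07 for Sdhd. Without healthy CD11b+ library 3, the differences of Sdha (0.57, adjusted p = 0.0336) and Sdhd (0.58, adjusted p = 0.0413) in CD11b+ cells passed the threshold. Removing the GC and length trend took Sdhb to 0.42 (adjusted p = 0.0407).

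**Figure D3:**
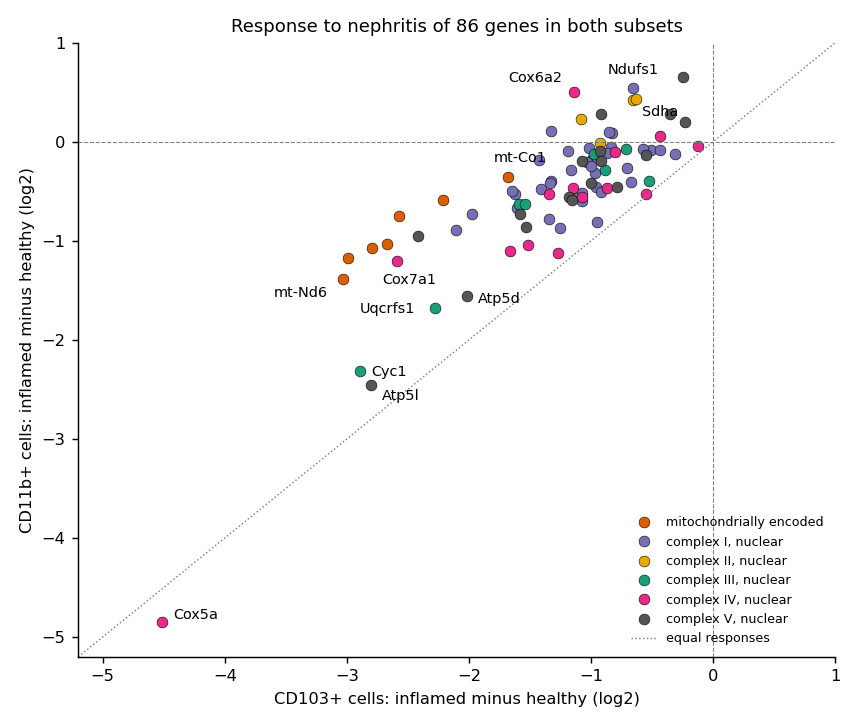
Log2 difference of inflamed minus healthy for each of the 86 genes in CD103+ cells (x axis) and CD11b+ cells (y axis), coloured by complex and genome. Most genes lie above the dotted line of equal responses, Cox5a lies below it (-4.51 in CD103+ and -4.85 in CD11b+ cells), and the complex II genes Sdha, Sdhc and Sdhd lie above 0 on the y axis.

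Complex III moves electrons from ubiquinol to cytochrome c. Its nuclear catalytic subunits, cytochrome c1 (Cyc1, chr15:76343523-76346260) and the Rieske iron-sulphur protein (Uqcrfs1, chr13:30540308-30545362), fell far in both subsets. Cyc1 had 13.6, 10.4 and 17.4 CPM in inflamed CD11b+, 18.2, 13.8 and 18.9 CPM in inflamed CD103+, 58.5, 67.3 and 76.6 CPM in healthy CD11b+ and 148, 122 and 108 CPM in healthy CD103+ libraries. Every inflamed library lay below every healthy one. The falls were 7.42-fold in CD103+ cells (log2 -2.89 ± 0.20, adjusted p = 1.35e-07) and 4.98-fold in CD11b+ cells (log2 -2.31 ± 0.20, adjusted p = 5.99e-06).

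Uqcrfs1, named here after its values were seen, had 27.3, 24.2 and 28.1 CPM in inflamed CD11b+ and 29.4, 36.4 and 37.2 CPM in inflamed CD103+ libraries, against 83.1, 75.1 and 96.8 CPM in healthy CD11b+ and 168, 173 and 157 CPM in healthy CD103+ libraries. Again no inflamed library reached a healthy one. It fell 4.84-fold in CD103+ cells (log2 -2.28 ± 0.14, adjusted p = 7.4e-08) and 3.19-fold in CD11b+ cells (log2 -1.67 ± 0.14, adjusted p = 3.96e-06). The other 7 nuclear subunits, which include the core proteins Uqcrc1 and Uqcrc2, all fell in CD103+ cells by 0.52 to 1.59 on the log2 scale, and 4 of them fell in CD11b+ cells. Among them Uqcr10, a small subunit, fell to 118 ± 11.2 CPM in inflamed against 184 ± 30.4 CPM in healthy CD11b+ cells (SD, n = 3 libraries each). That call was lost without inflamed CD11b+ library 2 (adjusted p = 0.065) or healthy CD11b+ library 3 (adjusted p = 0.0613), and the difference was 0.32 with the GC and length trend removed. No 50-base window of Cyc1 or Uqcrfs1 occurs in a transcript of another annotated gene.

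Complex IV, cytochrome oxidase, passes electrons to oxygen. Cox5a (chr9:57521274-57532426), a nuclear subunit encoded by a single gene, showed the largest fall of the 86 genes in both subsets. It had 1.65, 1.75 and 2.96 CPM in inflamed CD11b+ and 4.09, 4.68 and 5.67 CPM in inflamed CD103+ libraries, against 61.7, 51.4 and 66.6 CPM in healthy CD11b+ and 99.5, 125 and 105 CPM in healthy CD103+ libraries. All 4 groups were separate from one another. The falls were 28.8-fold in CD11b+ cells (log2 -4.85 ± 0.23, adjusted p = 8.86e-08) and 22.8-fold in CD103+ cells (log2 -4.51 ± 0.23, adjusted p = 2.98e-08). Counted from the most negative log2 difference over 14180 genes, Cox5a ranked 31 in CD11b+ cells and 190 in CD103+ cells. Of its exon bases 12.8% overlap another gene and 32% of its windows occur in other annotated transcripts. The other single-gene subunits Cox5b, Cox6c, Cox7b and Cox7c fell by 0.44 to 1.27 in CD103+ cells, and of these Cox7c alone fell in CD11b+ cells (-1.12).

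The isoforms used in most tissues, Cox4i1, Cox6a1, Cox6b1, Cox7a2 and Cox8a, all fell in CD103+ cells, and 4 of the 5 fell in CD11b+ cells. Cox6a1 averaged 73.5 ± 21.5 CPM in inflamed and 147 ± 17.0 CPM in healthy CD11b+ cells (SD, n = 3 libraries each), with 83.5 ± 8.14 CPM in inflamed and 239 ± 22.4 CPM in healthy CD103+ cells. Its log2 differences were -1.04 ± 0.19 in CD11b+ cells (adjusted p = 0.000875) and -1.52 ± 0.19 in CD103+ cells (adjusted p = 1.05e-05). Cox8a fell by 1.11 in CD11b+ and 1.67 in CD103+ cells, and Cox4i1 fell by 0.56 in CD11b+ and 1.08 in CD103+ cells. With the GC and length trend removed, the CD11b+ differences of Cox6a1 (-0.13), Cox8a (-0.19), Cox4i1 (0.17) and Cox7a2 (0.17) no longer passed. The Cox7a2 call in CD11b+ cells was also lost without any library of that subset other than healthy library 1 (adjusted p = 0.051 to 0.132).

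The minor isoforms were rare throughout. Cox6a2, the heart and muscle form, had 4.52, 3.07 and 4.57 CPM in inflamed CD11b+, 1.41, 1.77 and 1.57 CPM in inflamed CD103+, 2.37, 3.37 and 2.77 CPM in healthy CD11b+ and 3.34, 3.96 and 3.27 CPM in healthy CD103+ libraries. The inflamed CD103+ libraries lay below all others, and Cox6a2 fell in CD103+ cells (-1.14 ± 0.31, adjusted p = 0.00581). Cox6b2, the testis form, had 5.85, 7.97 and 7.94 CPM in inflamed CD11b+, 2.02, 2.91 and 3.54 CPM in inflamed CD103+, 11.7, 7.42 and 11.1 CPM in healthy CD11b+ and 4.61, 7.37 and 3.76 CPM in healthy CD103+ libraries. It was higher in CD11b+ than in CD103+ cells in each state, and it fell in CD103+ cells (-0.87 ± 0.32, adjusted p = 0.029), a call lost without inflamed CD103+ library 1 or 2 or healthy CD103+ library 2 (adjusted p = 0.0515 to 0.136). Cox7a1, the heart and muscle partner of Cox7a2, fell to 1.76 ± 0.304 CPM in inflamed CD11b+ against 4.22 ± 1.66 CPM in healthy CD11b+ cells, and to 2.05 ± 0.0393 CPM in inflamed CD103+ against 13.3 ± 6.10 CPM in healthy CD103+ cells. In CD11b+ cells its call was lost without inflamed library 2 (adjusted p = 0.0825) or healthy library 3 (adjusted p = 0.0877). Cox7a2l, which joins complexes III and IV into supercomplexes, differed by -0.04 ± 0.14 in CD11b+ and by -0.12 ± 0.14 in CD103+ cells and passed in neither (adjusted p = 0.827 and 0.451). Cox4i2 and Cox8b were among the genes dropped for low values.

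**Figure D4:**
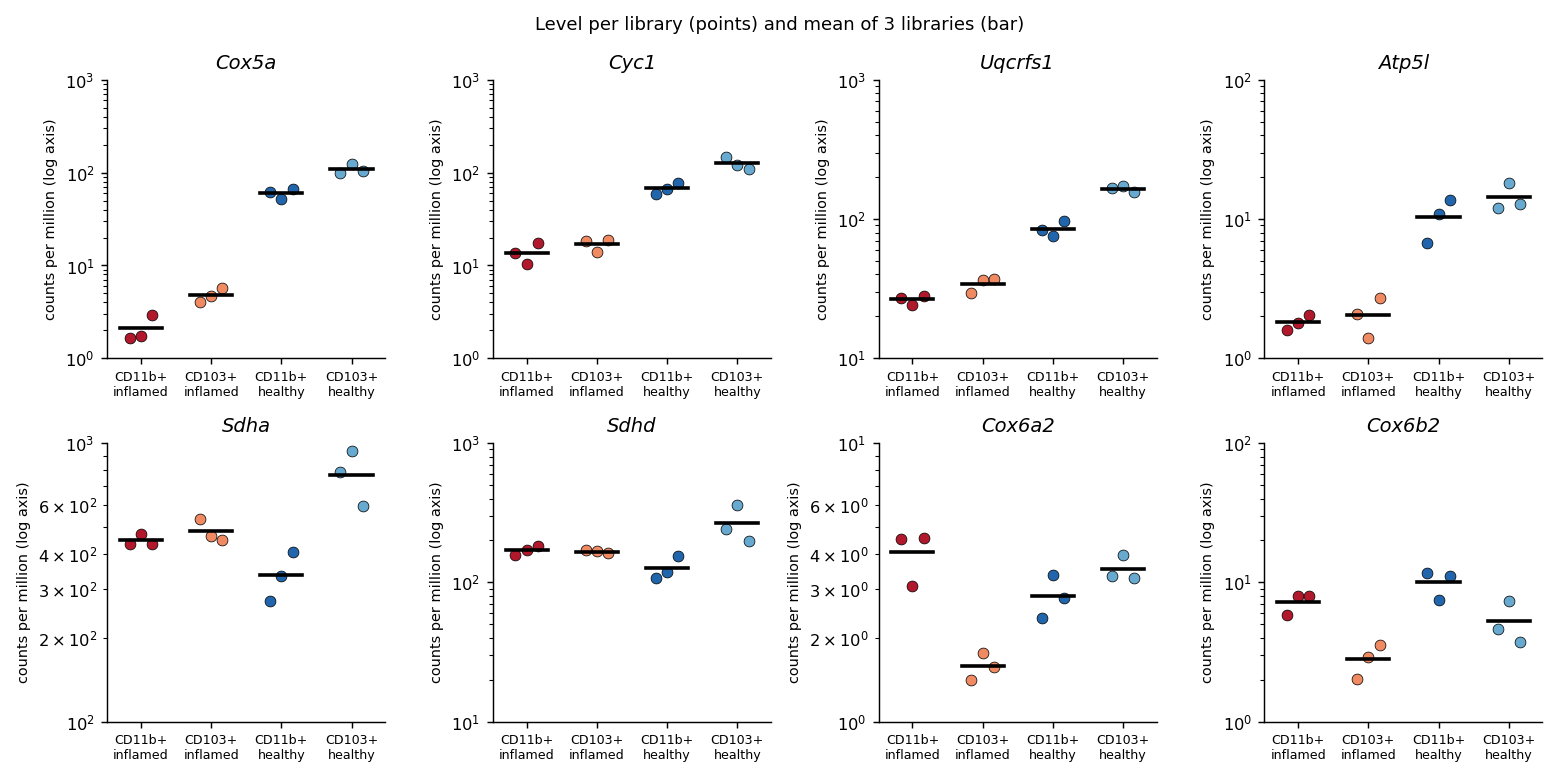
Level in each library (points, CPM on a log axis) and mean of 3 libraries (bar) for 8 genes in inflamed and healthy CD11b+ and CD103+ cells. Cox5a, Cyc1, Uqcrfs1 and Atp5l are lower in all inflamed libraries than in any healthy one, Sdha and Sdhd are highest in healthy CD103+ cells, and Cox6a2 is lowest in inflamed CD103+ cells at 1.41 to 1.77 CPM.

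Promoters of the nuclear genes are shown for genes that fell in both subsets (Cox5a, Uqcrfs1 and Cox6a1) and for the complex II gene Sdhd, which fell only in CD103+ cells by the test. They are the 250 bases before the start in RefSeq's table for GRCm38.p6, written 5′ to 3′ on the gene's strand, with capitals marking a match to a motif. The motifs searched on both strands were CCGGAAG of GABP, CGCATGCG of NRF1, AAGATGGCG of YY1 and TCAAGGTCA of the oestrogen-related receptors, 4 factors known to regulate respiratory genes.
Cox5a, chr9:57520982-57521231, plus strand: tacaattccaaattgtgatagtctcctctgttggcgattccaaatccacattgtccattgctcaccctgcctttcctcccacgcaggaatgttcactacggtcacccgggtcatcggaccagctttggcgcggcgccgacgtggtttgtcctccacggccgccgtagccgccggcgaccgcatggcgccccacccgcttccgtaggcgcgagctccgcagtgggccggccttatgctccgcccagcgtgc
Uqcrfs1, chr13:30545317-30545566, minus strand: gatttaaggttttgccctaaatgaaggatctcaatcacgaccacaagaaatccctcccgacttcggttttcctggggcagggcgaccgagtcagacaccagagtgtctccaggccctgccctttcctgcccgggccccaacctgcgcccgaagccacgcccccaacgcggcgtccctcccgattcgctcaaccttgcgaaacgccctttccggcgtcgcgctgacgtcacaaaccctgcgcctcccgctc
Cox6a1, chr5:115348959-115349208, minus strand: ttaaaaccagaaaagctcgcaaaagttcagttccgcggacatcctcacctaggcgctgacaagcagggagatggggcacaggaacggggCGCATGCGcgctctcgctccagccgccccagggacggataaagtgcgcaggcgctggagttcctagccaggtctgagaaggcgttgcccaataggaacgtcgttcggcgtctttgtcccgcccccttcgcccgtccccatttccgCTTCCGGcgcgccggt
Sdhd, chr9:50603850-50604099, minus strand: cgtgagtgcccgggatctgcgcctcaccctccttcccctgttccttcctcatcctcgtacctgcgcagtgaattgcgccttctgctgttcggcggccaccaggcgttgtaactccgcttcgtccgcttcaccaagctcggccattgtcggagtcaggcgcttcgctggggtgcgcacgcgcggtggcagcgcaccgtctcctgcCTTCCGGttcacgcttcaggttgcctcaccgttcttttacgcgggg

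Cox6a1 holds an NRF1 match and a GABP match on the opposite strand (CTTCCGG), Sdhd holds a GABP match on the opposite strand with an oestrogen-related receptor match that lies after its start and is not shown, and the windows of Cox5a and Uqcrfs1 hold none of these letters. Over windows of 250 bases before to 50 after the start, 63 of the 79 nuclear members had an entry, and GABP letters were found in 16 of them (25.4%), against 9.93% of 27025 genes. The shares were 14.3% against 2.07% for NRF1, 11.1% against 1.64% for YY1 and 3.17% against 0.466% for the oestrogen-related receptors. Among members with an entry, GABP letters were in 10 of 29 that were lower in both subsets and in 6 of 34 that were not lower in CD11b+ cells, and YY1 letters were in 1 of 29 and 6 of 34. These counts are a description of the windows.

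ATP synthase makes ATP in its F1 head, which is joined by a stalk to the membrane part, Fo. Of the 5 genes of the head, 4 fell in CD103+ cells and 3 fell in CD11b+ cells. The catalytic beta subunit Atp5b had 261, 242 and 325 CPM in inflamed CD11b+, 299, 337 and 353 CPM in inflamed CD103+, 418, 432 and 513 CPM in healthy CD11b+ and 1057, 1090 and 825 CPM in healthy CD103+ libraries, with no overlap within a subset. It fell by 0.72 in CD11b+ cells and by 1.58 in CD103+ cells. Its partner in the head, the alpha subunit Atp5a1, differed by 0.28 ± 0.18 in CD11b+ cells (adjusted p = 0.24) and fell by 0.92 in CD103+ cells. The delta subunit Atp5d fell in both, by 1.56 in CD11b+ and 2.02 in CD103+ cells. Like Uqcrfs1, these 3 were chosen after their values were seen.

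Atp5l, subunit g of the membrane part, showed the largest fall of complex V in both subsets. It had 1.59, 1.79 and 2.06 CPM in inflamed CD11b+ and 2.07, 1.4 and 2.71 CPM in inflamed CD103+ libraries, against 6.76, 10.8 and 13.7 CPM in healthy CD11b+ and 12.0, 18.1 and 12.8 CPM in healthy CD103+ libraries. All inflamed libraries lay below all healthy ones. The falls were 5.50-fold in CD11b+ cells (log2 -2.46 ± 0.33, adjusted p = 0.000124) and 6.99-fold in CD103+ cells (log2 -2.81 ± 0.33, adjusted p = 7.79e-06). Of its 50-base windows 84.8% also occur in transcripts of other annotated genes, so its count is uncertain.

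Subunit c, the ring that turns in the membrane, is encoded by Atp5g1, Atp5g2 and Atp5g3. Atp5g3 gave most of the RNA, at 78.2 ± 8.15 CPM in inflamed CD11b+, 110 ± 8.47 CPM in inflamed CD103+, 116 ± 15.5 CPM in healthy CD11b+ and 254 ± 64.5 CPM in healthy CD103+ cells. Atp5g1 had 5.27 ± 0.288, 5.46 ± 0.758, 10.3 ± 2.03 and 30.2 ± 10.0 CPM in the same groups (SD, n = 3 libraries each). Both fell in both subsets, Atp5g1 by 2.42 in CD103+ and 0.95 in CD11b+ cells and Atp5g3 by 1.18 in CD103+ and 0.56 in CD11b+ cells. The Atp5g3 call in CD11b+ cells was lost without inflamed library 1 or 2 or healthy library 2 or 3 of that subset (adjusted p = 0.0585 to 0.0809). Atp5g2, with at most 2.42 CPM in any library, passed in neither. Atp5s and Atp5sl, which carry the name without being subunits of the enzyme, fell in CD103+ cells (-1.15 and -0.92) and did not pass in CD11b+ cells.

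In healthy kidneys, CD11b+ libraries held less respiratory chain RNA than CD103+ libraries. Of the 86 genes 76 were lower and 1 was higher in CD11b+ cells, beside 24.5% lower and 25.4% higher (50.0% in either direction) among all genes tested. The mitochondrial genes were all lower (median -1.70), and 69 of 79 nuclear genes were lower (median -0.93, against 0.02 over all genes). Among nuclear genes, the largest differences by complex were those of Ndufb9 (-1.44 ± 0.19), Sdha (-1.19 ± 0.18), Uqcr10 (-1.09 ± 0.18), Cox7a1 (-1.63 ± 0.37) and Atp5g1 (-1.51 ± 0.25). Ndufb9, an accessory subunit of complex I, had 104, 126 and 153 CPM in healthy CD11b+ libraries, against 323, 470 and 264 CPM in healthy CD103+ libraries, without overlap. The higher gene was Cox6b2 (0.97 ± 0.32, adjusted p = 0.022), whose call was lost without any of 4 of the healthy libraries (adjusted p = 0.0588 to 0.0741). With the tubule covariate 0 of the 86 passed. Only 252 of all 14180 genes did, so the 0 is not read as particular to these genes. Subset and tubule content cannot be told apart for them.

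In inflamed kidneys few genes passed between the subsets. The log2 difference, CD11b+ minus CD103+, was negative for 70 of the 86 genes and positive for 16. Its median was -0.16, against 0.01 over all genes. Here 2 genes were higher and 3 lower in CD11b+ than in CD103+ cells, beside 9.66% higher and 8.21% lower (17.9% in either direction) among all genes tested, and at an unadjusted p under 0.05 the numbers were 3 and 9. None of the mitochondrial genes passed, with differences of -0.13 to 0.19 and a median of 0.01. Cox6a2 (1.32 ± 0.31, adjusted p = 0.0081) and Cox6b2 (1.38 ± 0.32, adjusted p = 0.00728) were higher in CD11b+ cells. Cox5a was lower (-1.22 ± 0.23, adjusted p = 0.00163). So were Ndufb11, a membrane-arm subunit of complex I (-0.58 ± 0.14, adjusted p = 0.00899), and Atp5c1, the central stalk of ATP synthase (-0.44 ± 0.14, adjusted p = 0.0368). Atp5c1 had 423, 458 and 459 CPM in inflamed CD11b+ and 619, 612 and 591 CPM in inflamed CD103+ libraries, without overlap, but its call was lost without any of the 6 inflamed libraries or healthy CD11b+ library 2 (adjusted p = 0.0531 to 0.123). That of Ndufb11 was lost without inflamed CD11b+ library 2 (adjusted p = 0.0522). The number of lower genes was 1 without inflamed CD11b+ library 2, 7 without healthy CD103+ library 2 and 5 without healthy CD103+ library 3, which enter through the shared spread. With the tubule covariate the same 2 were higher and 7 were lower, the 3 above with Atp5g3, Ndufa6, Uqcrc2 and Uqcrfs1. How many of all genes passed with it here is not given, so the change from 3 to 7 is not read as particular to these genes.

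The responses of the subsets differed for 46 of the 86 genes, each with a higher value in CD11b+ than in CD103+ cells, beside 17.7% of all genes tested in that direction and 17.7% in the other (35.4% in either). All 7 mitochondrial genes were among them (1.33 to 1.82), with 21 of 35 nuclear genes of complex I, 4 of 4 of complex II, 5 of 9 of complex III, 3 of 14 of complex IV and 6 of 17 of complex V. The difference was 1.82 ± 0.25 for mt-Nd2 (adjusted p = 0.000355) and 1.64 ± 0.44 for Cox6a2 (adjusted p = 0.0119). For Cyc1 it was 0.58 ± 0.29 (adjusted p = 0.128), for Cox5a -0.34 ± 0.32 (adjusted p = 0.433) and for Atp5l 0.35 ± 0.47 (adjusted p = 0.592), and none of these 3 passed. With the tubule covariate no gene of 14180 passed in this comparison, and 4 members were higher and 0 lower at an unadjusted p under 0.05.

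Genes that serve the chain moved less evenly, and their counts are to be read beside 34.6% higher and 27.8% lower among all genes in CD103+ cells and 20.1% higher and 15.8% lower in CD11b+ cells. They also depend on scaling: with libraries set to equal leukocyte RNA, the median of all genes moved to -1.57 in CD103+ and -0.49 in CD11b+ cells. Most genes thus lay lower in inflamed cells under leukocyte scaling, and the share of all genes called under it is not given here. The counts under it, in this and the following paragraphs, are therefore not read as results about these lists. With the tubule covariate no gene passed in CD103+ cells, so the CD103+ counts cannot be told apart from tubule content. The electron carriers and entry points fell in 12 of 19 genes and rose in 0 in CD103+ cells, and in CD11b+ cells fell in 3 and rose in 2; under leukocyte scaling 19 fell in CD103+ and 5 in CD11b+ cells, with 0 that rose. Cytochrome c (Cycs) fell in both, by 1.59 in CD103+ and 0.78 in CD11b+ cells, whereas the glycerol phosphate dehydrogenase Gpd2 rose by 0.75 in CD11b+ cells. Of 18 citric acid cycle genes, 16 fell and 1 rose in CD103+ cells, while 2 fell and 4 rose in CD11b+ cells. Under leukocyte scaling 18 fell in CD103+ and 2 in CD11b+ cells, and 0 rose in either. The one that rose in CD103+ cells was citrate synthase (Cs), which averaged 239.7 ± 4.90 CPM in inflamed and 117 ± 11.9 CPM in healthy CD11b+ cells, and 306 ± 19.3 CPM in inflamed and 195 ± 32.9 CPM in healthy CD103+ cells. Idh2, the mitochondrial NADP-linked isocitrate dehydrogenase, fell by 2.32 in CD103+ and 1.12 in CD11b+ cells. Mitochondrial ribosome genes fell in 41 and rose in 3 of 73 in CD103+ cells, and fell in 18 and rose in 4 in CD11b+ cells, against 73 and 28 that fell and 0 that rose under leukocyte scaling.

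Assembly factors went both ways by the deposited scaling, but not in CD103+ cells under leukocyte scaling, where the median of all genes fell too. For complex I, 7 of 15 fell and 1 rose in CD103+ cells, and 2 fell and 2 rose in CD11b+ cells. For complexes II to V, 13 of 29 fell and 5 rose in CD103+ cells, and 7 fell and 5 rose in CD11b+ cells. Under leukocyte scaling, 15 factors of complex I fell and 0 rose in CD103+ cells, and 4 fell and 0 rose in CD11b+ cells. For complexes II to V, 28 fell and 0 rose in CD103+ cells, and 8 fell and 1 rose in CD11b+ cells. The copper chaperone Cox17, which supplies complex IV, rose to 142 ± 14.2 CPM in inflamed CD11b+ against 46.6 ± 3.02 CPM in healthy CD11b+ cells, and to 111 ± 15.8 CPM in inflamed CD103+ against 48.1 ± 5.54 CPM in healthy CD103+ cells (log2 differences of 1.60 in CD11b+ and 1.21 in CD103+ cells). Tmem70, an assembly factor of ATP synthase that also acts on complex I, fell by 1.64 in CD103+ and 1.52 in CD11b+ cells.

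Among 12 regulators of mitochondrial biogenesis, 5 rose and 4 fell in CD103+ cells, and 2 rose and 1 fell in CD11b+ cells. Under leukocyte scaling 0 rose in either subset, while 10 fell in CD103+ and 2 in CD11b+ cells. The coactivator Ppargc1a averaged 10.5 ± 4.34 CPM in inflamed and 69.7 ± 12.5 CPM in healthy CD103+ cells (log2 -2.81 ± 0.36, adjusted p = 1.59e-05), and 11.6 ± 0.700 CPM in inflamed and 12.4 ± 5.45 CPM in healthy CD11b+ cells. Its level was thus highest in the group with the most tubule RNA. With the tubule covariate no gene passed in CD103+ cells, so this fall cannot be told apart from tubule content. Pprc1, a relative of Ppargc1a, rose by 1.29 in CD103+ and 0.69 in CD11b+ cells, as did the factor Nrf1, by 0.84 in CD103+ and 0.45 in CD11b+ cells. Of 18 genes for upkeep and transcription of mitochondrial DNA, 7 fell and 4 rose in CD103+ cells, and 4 fell and 0 rose in CD11b+ cells; under leukocyte scaling 14 fell in CD103+ and 5 in CD11b+ cells, with 0 that rose. Tfam, which packages that DNA and starts its transcription, fell by 0.70 in CD103+ and 0.95 in CD11b+ cells. Of 11 uncoupling and exchange carriers, 5 fell and 1 rose in CD103+ cells, and 1 fell and 1 rose in CD11b+ cells; under leukocyte scaling 11 fell in CD103+ and 1 in CD11b+ cells, with 0 that rose. By the deposited scaling, the mitochondrial carrier Ucp2 was the one that rose in both, by 1.04 in CD103+ and 0.56 in CD11b+ cells, and the phosphate carrier Slc25a3 fell by 1.14 in CD103+ and 0.73 in CD11b+ cells.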

How the data were processed

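RNA of 12 libraries was read from 1 table of log2 values, deposited by the authors. The tools named, per the submitters' processing notes, are edgeR, featureCounts 1.4.5, STAR 2.0.4b and Subread. The genome build and the strand setting are not given in the sources used here. The protocol in the labels names a kit for small amounts of RNA and 50-base single reads. Each value was log2 of reads plus 0.5 per 1000000 reads of a scaled library size: whole reads came out for 100% of genes within 0.05. CPM in the text are these reads over that size. One line was kept per gene, which left 26121. Coordinates, exon lengths and transcripts are from GENCODE M21 (GRCm38), which may not be the authors' build; members are named as in the table. Where annotated genes overlap or share sequence, the counting could split their reads.

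The 14180 genes that reached 1 CPM in 3 or more libraries entered limma 3.58.1 (R 4.3.3), which fitted a mean for each of the 4 groups with trended, robust empirical Bayes, two-sided, adjusted over all genes tested by the Benjamini-Hochberg method at 0.05. Differences are of mean log2 values, which understates changes of rare genes, and ± beside them is the SE. The 5 comparisons were the response to nephritis in each subset, the subsets in each state and the difference of the responses. Each group's 3 libraries come from 3 mice, each giving both subsets. No label ties a library number to a mouse, so no pairing was used. In inflamed kidneys same-numbered libraries of the subsets correlated at 0.052 to 0.151 and different-numbered ones at -0.136 to 0.0742. In healthy kidneys the ranges were -0.154 to 0.0003 and -0.100 to 0.115. The reads carry no molecular identifiers.

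Named genes are the mitochondrial members, complex II, the isoform sets, the largest called rise and fall of each complex in each comparison (at least 10 CPM in the higher group) and the 6 largest differences of responses, with up to 4 genes per related list. Other genes named to spell out a count were chosen after their values were seen. The members and all lists were chosen with earlier results of these data known. The scripts were tested on simulated data. Alternatives were other offsets, filters and scalings, leukocyte scaling, a tubule covariate, fewer groups, replicate blocks and leaving out each library; limma's voom on recovered reads and removal of the GC and length trend were added after the data were seen. Python 3.11.15 with pandas 2.3.3 prepared the tables and matplotlib 3.10.9 drew the figures.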

Additional observations from a re-analysis of the deposited data

Results flagged for a closer look

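By the test of the difference of responses to nephritis, the subsets differed for 20 of the genes that the naming rule covers. Each had the higher value in CD11b+ than in CD103+ cells. The naming rule picks genes partly by the size of their differences, so the 20 is not read as a share. Among all 86 genes 46 passed in that direction, beside 17.7% of all genes tested. With the tubule covariate no gene passed in this comparison. The differences of log2 responses, CD11b+ minus CD103+, were 1.63 for mt-Nd1, 1.82 for mt-Nd2, 1.82 for mt-Nd4, 1.64 for mt-Nd5, 1.65 for mt-Nd6, 1.72 for mt-Cytb and 1.33 for mt-Co1. In complex I they were 1.22 for Ndufa12, 0.93 for Ndufa4, 1.25 for Ndufb9 and 1.20 for Ndufs1. In complex II they were 1.08 for Sdha, 0.92 for Sdhb, 1.31 for Sdhc and 1.07 for Sdhd. In complexes III to V they were 0.96 for Uqcr10, 1.64 for Cox6a2, 0.70 for Cox6b1, 0.82 for Cox7a2 and 1.46 for Atp5g1. Of these, Ndufs1 was the only one called in opposite directions in the subsets. Its call in CD11b+ cells was lost without any of the 3 inflamed CD11b+ libraries or healthy CD11b+ library 2. That call was also lost under quantile normalization, leukocyte scaling, the tubule covariate and removal of the GC and length trend.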

How the results depend on the processing

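For the named genes, 3922 values under the alternatives stayed on their side of the threshold without turning a called direction, 151 lost the call, 71 gained it and 37 changed sign against a call. With the tubule score as a covariate, the members lower were 0 in CD103+ cells, 3 in CD11b+ cells, 0 in healthy and 7 in inflamed kidneys; those higher were 2 in CD11b+ cells and 0 in healthy kidneys, and for the difference of responses 0. Sign changes under it in CD103+ cells were Sdha 0.83, Sdhb 0.23, Sdhc 0.63, Sdhd 1.25, Cox6a1 0.070, Cox6b1 0.054, Cox6b2 0.43, Cox7a1 0.89, Cox7a2 0.21, Cox8a 0.29, Ndufa4 0.51, Atp5g3 0.10, Ndufs1 0.73, Ndufb9 0.29, Uqcr10 0.15 and Ndufb11 0.26. In CD11b+ cells they were mt-Nd1 0.19, Cox7a1 0.35, Cox7a2 0.17, Atp5g3 0.0069, Uqcr10 0.14 and Ndufb11 0.0091. In healthy kidneys they were Cox6a1 0.073, Cox7a1 0.072 and Cox8a 0.15. For the difference they were Cox7a2 -0.048, Ndufa4 -0.089 and Uqcr10 -0.0090. None of these values with a changed sign under the covariate passed at an adjusted p under 0.05. Leukocyte scaling moved the median of all genes to -1.57 in CD103+ cells, -0.49 in CD11b+ cells, -1.19 in healthy and -0.03 in inflamed kidneys and 1.09 for the difference, and the members' medians to -2.80, -0.98, -2.17, -0.20 and 1.91. Under it the members higher were 0 in CD11b+ cells, 0 in healthy and 0 in inflamed kidneys and 80 for the difference, 1 was lower in inflamed kidneys, and Ndufs1 in CD11b+ cells (-0.028) and Cox6b2 in healthy kidneys (-0.23) changed sign. Removing the GC and length trend gave 14 higher and 14 lower in CD11b+ cells and 0 higher in healthy kidneys. Its sign changes in CD11b+ cells were Sdhb 0.42, Cox4i1 0.17, Cox6b1 0.62, Cox7a2 0.17, Atp5g3 0.072, Uqcr10 0.32 and Ndufb11 0.10. Of these, only Sdhb and Cox6b1 passed the threshold with the changed sign. Quantile normalization gave 0 higher in CD11b+ cells. Fitting only the groups compared gave 3 higher in CD11b+ cells, 0 higher in healthy and 12 lower in inflamed kidneys. In inflamed kidneys, median-centred libraries gave 9 lower, voom 5 lower and a filter of 5 CPM 1 higher. The cause was not tested in any of these. Except where stated above, the share of all genes called under a setting is not given here. Leaving out each library gave 75 to 83 lower and 0 to 0 higher in CD103+ cells, 23 to 44 lower and 0 to 3 higher in CD11b+ cells, 72 to 79 lower and 0 to 1 higher in healthy kidneys, 1 to 7 lower and 2 to 3 higher in inflamed kidneys and 38 to 63 higher for the difference. Same-numbered libraries correlated at no more than 0.151. With the library number as a replicate block the lower and higher numbered 80 and 0, 35 and 1, 76 and 1 and 2 and 2 in the same order, with 45 higher for the difference. With the block by state they were 74 and 1, 2 and 2, and 38 for the comparisons that allow it. The planned count tests were not run because the deposited values are log2 values, and fitting only the groups compared could not be done for the difference, which uses all groups. Depth limits Atp5g2 most, with 0.247 to 2.42 CPM.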
